A study of Mus musculus with 36 samples.

Results

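The E2F family is a group of transcription factors that switch the genes of DNA replication and cell division on and off. The mouse family has 8 listed genes, E2f1 to E2f8, and its members were taken from the expression table by gene symbol alone. Of these 8 genes 7 were among the 12762 genes of the table. E2f6 was not found there, neither by symbol nor by its Ensembl identifier, and was not analysed here.

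The study followed mRNA in B3 cells, a mouse pre-B cell line, after Ikaros (Ikzf1), a zinc finger factor of lymphoid development, was made active in the nucleus. All cells carried an MSCV retroviral vector with the hormone-binding domain of the estrogen receptor (ERt2), an IRES and GFP, and were sorted for GFP. In the Ikaros line the vector encoded haemagglutinin-tagged Ikaros fused to ERt2 (HA-Ikaros-ERt2-IRES-GFP), and in the control line ERt2 without Ikaros, so both lines were made from one parental line and are pools of sorted cells. The table does not separate vector-borne Ikaros from the cells' own Ikzf1. Each line was profiled at 0, 2, 6, 12, 18 and 24 h. The drug that releases the fusion protein was 4-hydroxy-tamoxifen (4-OHT) at 0.5 uM, with 3 libraries in each of the 12 groups and 36 in all.

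The labels list 4-OHT for every library, also at 0 h, whereas the methods state that the 0 h cells had no drug and were collected separately. Replicates 1, 2 and 3 came from culture batches 1, 2 and 4 at 0 h and from batches 1, 3 and 4 at the later times. The cells of one batch were harvested together. The values are log2 expression after correction for GC content, gene length and library preparation, so read depth is unknown, and in bulk RNA fewer cells of a kind and less RNA per cell cannot be told apart. Ikzf1 lay between 13.95 and 14.85 in the 18 control libraries and between 19.63 and 20.93 in the 18 Ikaros libraries, with no overlap at any of the 6 times. All 10 listed pre-B markers were in the table, none of 5 T cell markers, and 2 each of the 5 myeloid, 4 erythroid and 3 natural killer cell markers.

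E2F proteins bind DNA as dimers with a DP partner, except for E2F7 and E2F8, which bind as dimers of their own. E2F1, E2F2 and E2F3 are the activators, which drive entry into S phase once cyclin-dependent kinases have released them from the retinoblastoma protein. E2F4 and E2F5 act mainly as repressors with the pocket proteins p107 and p130, E2F6 represses with a Polycomb complex, and E2F7 and E2F8 repress E2F targets late in the cycle. In B cell development pre-B cells divide under pre-B receptor and interleukin 7 signals and then leave the cycle to rearrange the light chain genes, and arrest of B3 cells in G1 is a known effect of Ikaros in this system.

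The stretches of sequence before the starts of E2f3 and E2f7 are shown because both genes were lower in Ikaros cells at 24 h and both stretches hold an E2F sequence. They are the 250 bases before the RefSeq start in build GRCm38.p6, E2f3 at chr13:29986064-29986313 on the minus strand and E2f7 at chr10:110745189-110745438 on the plus strand. Capitals mark the letters searched for. These were the E2F sequence (TTTCCCGC or TTTGGCGC or TTTCGCGC or TTTGCCGC), the core letters of Ikaros sites (TGGGAA) and the cell cycle homology region bound by MuvB (TTTGAA), each on both strands. Read on the other strand, the E2F sequence GCGGGAAA shares the letters GGGAA with the Ikaros core.
E2f3: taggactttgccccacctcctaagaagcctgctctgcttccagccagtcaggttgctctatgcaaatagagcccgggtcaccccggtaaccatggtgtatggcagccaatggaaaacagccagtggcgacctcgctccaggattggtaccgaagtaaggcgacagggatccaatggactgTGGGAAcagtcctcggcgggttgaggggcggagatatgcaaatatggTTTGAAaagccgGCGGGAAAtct
E2f7: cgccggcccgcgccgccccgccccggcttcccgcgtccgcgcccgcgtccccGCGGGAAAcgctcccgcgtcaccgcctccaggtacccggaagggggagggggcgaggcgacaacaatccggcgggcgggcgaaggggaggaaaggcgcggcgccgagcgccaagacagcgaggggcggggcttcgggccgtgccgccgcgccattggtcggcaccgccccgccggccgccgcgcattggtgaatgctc

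In E2f3 the E2F sequence GCGGGAAA began 11 bases before the start, the cell cycle homology letters 23 bases before it and the Ikaros letters 70 bases before it. In E2f7 the same E2F sequence began 198 bases before the start, and its window held none of the other letters. E2f2, which was higher in Ikaros cells from 2 h on, had its E2F sequence 39 bases after its RefSeq start and 81 bases before the start in GENCODE, within chr4:136172294-136172323 on the plus strand of GRCm38.p6. The 30 bases around it are shown with the E2F letters in capitals.
E2f2: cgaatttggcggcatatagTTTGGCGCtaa

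RefSeq windows of 300 bases, 250 before and 50 after a start, were given for 6 of the 8 members, with 8 windows in all. The window of E2f8 held the cell cycle homology letters 20 bases before its start, a second window of E2f2 held them 31 bases before its own, and a second window of E2f3 held the E-box letters CACGTG, the site of Myc and Max, 24 bases before its own. The windows of E2f1 and E2f6 held none of the letters, and the RefSeq start of E2f1 lay 466 bases inside the GENCODE gene. Among all 32851 windows of the RefSeq table, 2.26% held the E2F sequence, 25.6% the Ikaros letters, 17.9% the cell cycle homology letters and 7.15% the E-box. A match of letters is a description of the window, and binding was not measured here.

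The 7 measured genes lie on separate chromosomes (GENCODE M21, GRCm38), E2f1 at chr2:154559407-154569892 on the minus strand, E2f2 at chr4:136172394-136196057 on the plus strand, E2f3 at chr13:29906575-29986063 on the minus strand and E2f4 at chr8:105297663-105305370 on the plus strand. E2f5 is at chr3:14578641-14606309 on the plus strand, E2f7 at chr10:110745439-110787384 on the plus strand and E2f8 at chr7:48866429-48881596 on the minus strand. All are protein-coding genes, and each value sums over a whole gene, so the E2F3a and E2F3b forms of E2f3, which start at separate promoters, were not separated. Exons of E2f8 share 610 bases with Gm2788 and those of E2f5 share 26 bases with 1810022K09Rik, both on the opposite strand and both in the table, and those of E2f7 share 86 bases with the antisense gene 1700020G17Rik, which was not found there. The libraries kept strand, but the strand setting of the counting is not given in the sources used here.

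In the control line no member was called against its 0 h level, and in the Ikaros line the members parted. E2f2 was higher in Ikaros than in control cells from 2 to 24 h, E2f1 was higher at 6 and 12 h and lower at 24 h, and E2f3, E2f4, E2f7 and E2f8 were lower at 24 h. Before 24 h, E2f7 was also lower at 2 h, E2f3 at 12 h and E2f4 at 18 h. E2f5 did not pass the test at any time. Calls here are at an adjusted p under 0.05 from limma's moderated test, adjusted over all 12762 genes, and differences are Ikaros minus control on the log2 scale with their standard error (SE) and 3 libraries a group.

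**Figure D1:**
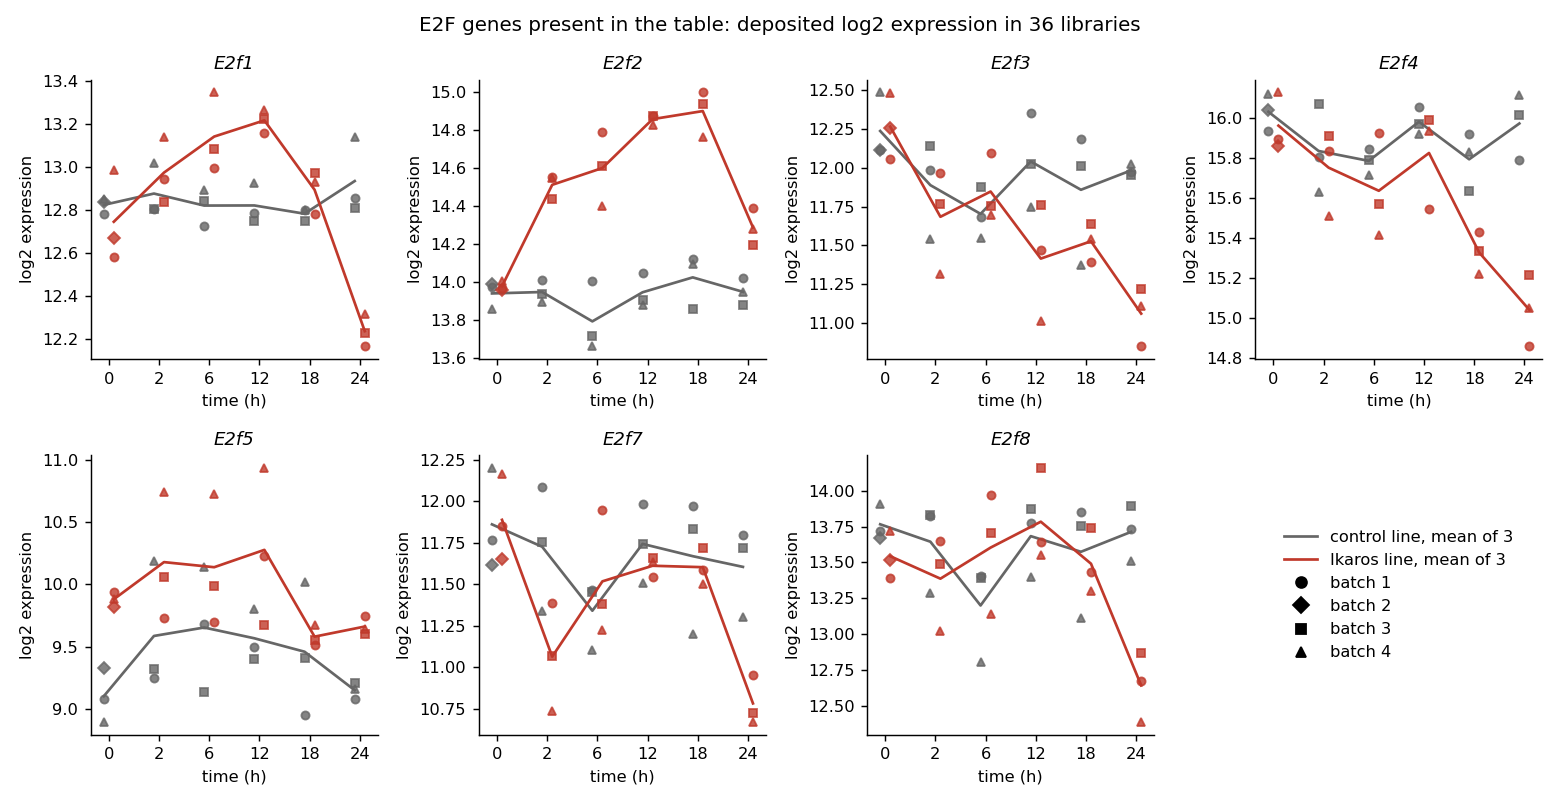
Deposited log2 expression (vertical axes, a separate range for each gene) of the 7 E2F genes in the table against time in hours, evenly spaced by group. Each point is 1 library, its shape gives the culture batch, and lines join the means of 3 libraries. E2f2 in Ikaros cells climbed from 13.98 to 14.90 and came back to 14.28, and the other genes of the Ikaros line except E2f5 were at their lowest mean at 24 h.

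Over the times 0, 2, 6, 12, 18 and 24 h the count of called members was 0, 2, 2, 3, 2 and 6 of 7. The share called among all genes was 8.33, 19.1, 37.3, 45.8, 58.2 and 62.9% in the same order, so most of the table moved over these hours. At 24 h 5 members were lower and 1 higher, where 31.9% of all genes were lower and 31.0% higher. At 2 h 1 member was higher and 1 lower, against 9.18% and 9.88% of all genes. At 6 h both called members were higher, against 18.1% of all genes. At 12 h 2 were higher and 1 lower, against 23.0% and 22.8%, and at 18 h 1 was higher and 1 lower, against 29.0% and 29.2%.

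The separation of the libraries ran in the same order. The 3 Ikaros libraries lay wholly outside the 3 control libraries for 1, 1, 2, 2, 2 and 7 members over the 6 times. Among all genes the share was 32.7, 27.9, 41.0, 51.0, 64.5 and 71.0%. The member apart at 0 h, before induction, was E2f5.

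**Figure D2:**
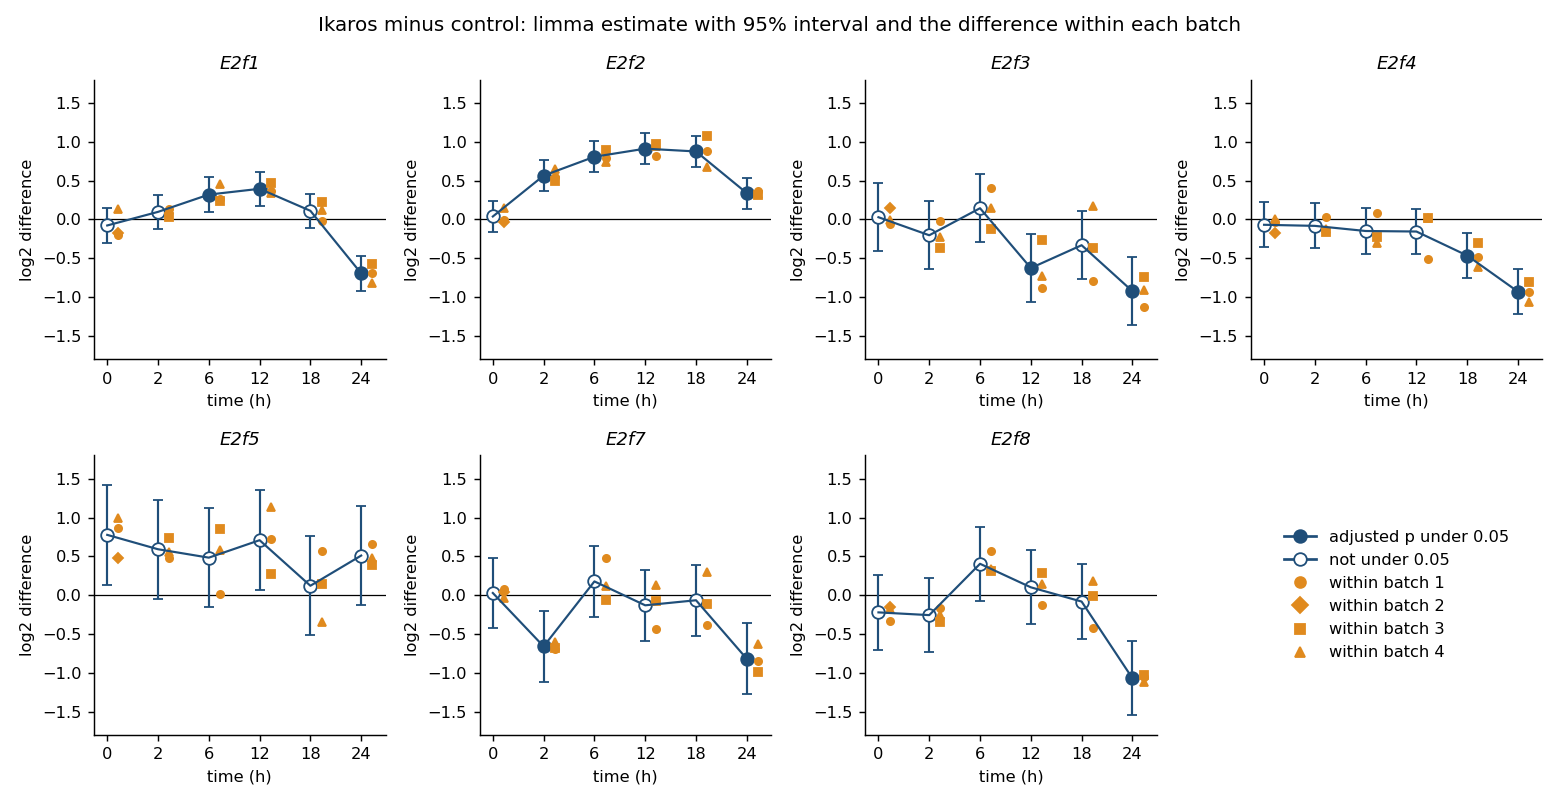
Ikaros minus control difference in log2 expression (vertical axes, one range for all genes) against time in hours for the 7 E2F genes. Blue circles and bars are limma estimates with 95% intervals, filled where the adjusted p is under 0.05, and orange marks are the differences within single batches. At 24 h the estimates run from -1.07 for E2f8 to 0.51 for E2f5.

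E2f2, an activator with known roles in lymphocyte division, was the one member called higher in Ikaros cells at every time from 2 h to 24 h. At 0 h it stood at 13.97, 13.96 and 14.00 in Ikaros cells and at 13.97, 13.99 and 13.86 in control cells. At 2 h the Ikaros libraries had 14.55, 14.43 and 14.54 and the control libraries 14.01, 13.93 and 13.89, and at 18 h they had 15.00, 14.94 and 14.76 against 14.12, 13.86 and 14.09. The lines overlapped at 0 h and no library of one line reached the other from 2 h on.

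For E2f2 the difference at 2, 6, 12, 18 and 24 h was 0.56, 0.81, 0.91, 0.88 and 0.34, with an SE of 0.10 at each time and limma adjusted p of 0.000116, 2.91e-07, 1.75e-08, 1.64e-08 and 0.00367. Within batches it ranged from 0.50 to 0.65 at 2 h, from 0.67 to 1.08 at 18 h and from 0.32 to 0.37 at 24 h, so every batch had it above 0. At 24 h the libraries stood at 14.39, 14.19 and 14.27 in Ikaros cells and at 14.02, 13.87 and 13.94 in control cells. Against the difference at 0 h the gain was 0.53 at 2 h (adjusted p = 0.0301) and 0.84 at 18 h (1.73e-05), while the gain of 0.30 at 24 h was not called (0.0728) without the batch in the model and was called with it as a replicate block (0.0264). The call of the gain at 2 h was lost without any one of control replicates 1 and 2 at 0 h, control replicates 2 and 3 at 2 h, the 3 Ikaros replicates at 0 h or Ikaros replicates 1 and 3 at 2 h, with adjusted p between 0.05 and 0.0829.

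From 18 to 24 h the difference of E2f2 fell by 0.54 (SE 0.14, adjusted p = 0.0331), a contrast that was chosen after the values were seen. That call was lost without any one of control replicate 2 at 18 h, control replicates 1 and 3 at 24 h, Ikaros replicates 1 and 2 at 18 h or Ikaros replicates 2 and 3 at 24 h, with adjusted p between 0.0721 and 0.106, and in a fit of the 4 groups alone (0.117). In the order of its 12 group means the 5 Ikaros groups from 2 to 24 h stood above the other 7, and the pair at the boundary, Ikaros cells at 24 h and control cells at 18 h, did not overlap.

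E2f1, the activator that is also known to promote cell death when in excess, first rose and then fell in Ikaros cells. At 12 h the Ikaros libraries had 13.16, 13.22 and 13.26 and the control libraries 12.79, 12.75 and 12.92. At 24 h they had 12.17, 12.23 and 12.32 against 12.85, 12.81 and 13.14. The lines were thus apart at both times, in opposite directions.

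Over 6, 12, 18 and 24 h the E2f1 difference was 0.32, 0.39, 0.11 and -0.70, with an SE of 0.11 and adjusted p of 0.0206, 0.00366, 0.386 and 2.88e-06. It was above 0 in 3 of 3 batches at 6 and 12 h and below 0 in 3 of 3 at 24 h, from -0.82 to -0.58. The call at 6 h was lost without control replicate 1 or Ikaros replicate 3 at 6 h, with adjusted p of 0.0864 to 0.138, and in a fit of the 6 h groups alone. The call at 12 h was lost when replicate 2 was left out of every group (0.124). Against the 0 h difference E2f1 gained 0.47 at 12 h (adjusted p = 0.0195), a call lost without Ikaros replicate 1 or 2 at 0 h (0.0509 to 0.0662), and fell by 0.62 at 24 h (0.0014). With the replicate block its gain of 0.40 at 6 h was called as well (0.0106, against 0.0752 without). In Ikaros cells the mean of E2f1 went from 13.22 at 12 h to 12.89 at 18 h and 12.24 at 24 h. Between 18 and 24 h the difference fell by 0.81 ± 0.15 (adjusted p = 0.00443), a contrast chosen after the values were seen. That call was lost in a fit of those 4 groups alone (0.0659). It was also lost when replicate 1 (0.178) or replicate 2 (0.38) was left out of every group.

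E2f3, the third activator, drifted down in Ikaros cells. It stood at 12.05, 12.26 and 12.49 at 0 h, at 11.47, 11.76 and 11.01 at 12 h and at 10.85, 11.22 and 11.11 at 24 h. Control cells had 11.97, 11.96 and 12.02 at 24 h, all above the Ikaros libraries of that time, whereas at 12 h the control libraries at 12.35, 12.02 and 11.74 overlapped with them.

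Over 12, 18 and 24 h the E2f3 difference was -0.63, -0.33 and -0.92, with an SE of 0.21 and adjusted p of 0.0176, 0.184 and 0.000478. The call at 12 h was lost without control replicate 1 or Ikaros replicate 3 of that time (0.108 to 0.137), and in a fit of the 12 h groups alone (0.1), and 18 h was called once control replicate 3 was left out (0.0276). Within the Ikaros line E2f3 stood at -0.85, -0.74 and -1.21 from its own 0 h level at these times (adjusted p = 0.00185, 0.00456 and 2.11e-05). Within the control line E2f3 stood at -0.20, -0.38 and -0.25 from its 0 h level at the same times, and was not called. Its line difference fell by 0.95 ± 0.30 from 0 to 24 h (adjusted p = 0.0104). From 2 to 24 h the change was -0.72, which missed the threshold (0.0508) and passed it with the replicate block (0.0338).

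E2f4, the main E2F of resting cells, had the highest values of the family on this length-corrected scale, with a mean of 15.75 at percentile 96.9 of all genes. At 24 h it stood at 14.86, 15.22 and 15.05 in Ikaros cells and at 15.79, 16.02 and 16.11 in control cells. At 18 h the Ikaros libraries had 15.43, 15.33 and 15.22 and the control libraries 15.92, 15.64 and 15.83. The lines did not overlap at these times and overlapped at all 4 earlier ones.

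The difference of E2f4 was -0.47 ± 0.14 (SE) at 18 h (adjusted p = 0.00627) and -0.93 at 24 h (2.24e-06), after values between -0.16 and -0.07 up to 12 h, none of them called. In the order of its 12 group means the lowest was Ikaros cells at 24 h, which did not overlap with the next lowest, Ikaros cells at 18 h. Against the 0 h difference it fell by 0.86 at 24 h (adjusted p = 0.000801), and against the 2 h difference it fell by 0.85 (0.00101). Leaving out any single library kept the calls of E2f4 at 18 and 24 h, and leaving replicate 3 out of every group lost the one at 18 h (0.0556).

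E2f5, a repressor that overlaps with E2F4 in function, had its Ikaros libraries above the control libraries already before induction, without being called, and this gap did not change detectably. At 0 h it stood at 9.94, 9.82 and 9.89 in Ikaros cells and at 9.08, 9.33 and 8.90 in control cells. At 24 h it stood at 9.75, 9.60 and 9.64 against 9.09, 9.21 and 9.16. The lines did not overlap at 0 and 24 h and overlapped at the 4 times between.

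At 0, 12 and 24 h the E2f5 difference was 0.78, 0.71 and 0.51, with an SE of 0.31 and adjusted p of 0.146, 0.0656 and 0.157. With the replicate block 0 h was called (0.0396) and 12 h as well (0.018), the latter also without Ikaros replicate 2 (0.0149). From 0 to 24 h its difference changed by -0.27, with a 95% interval from -1.17 to 0.64, which is wide. Its SD within groups ran from 0.06 to 0.63, the largest of the family, and its mean of 9.69 at percentile 26.3 was the lowest.

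E2f7, an atypical repressor that holds down E2F1 and its targets, dipped in Ikaros cells at 2 h and again at 24 h. At 2 h the Ikaros libraries had 11.39, 11.07 and 10.74 and the control libraries 12.09, 11.75 and 11.34. At 24 h they had 10.95, 10.73 and 10.67 against 11.80, 11.72 and 11.30. The lines overlapped at 2 h, where each Ikaros library was nevertheless below the control library of its own batch (-0.70 to -0.60), and were apart at 24 h.

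Over 2, 6 and 24 h the E2f7 difference was -0.66, 0.18 and -0.82, with an SE of 0.22 and adjusted p of 0.0371, 0.564 and 0.00225. The call at 2 h was lost without any one of control replicates 1 and 2 and Ikaros replicates 2 and 3 at 2 h, with adjusted p of 0.0765 to 0.212, and in a fit of the 2 h groups alone (0.197). Within the Ikaros line E2f7 fell by 0.82 from 0 to 2 h (adjusted p = 0.011), a call lost without Ikaros replicate 3 of either time (0.0681 to 0.0995), and fell by 1.10 from 0 to 24 h (0.000113). Against the 0 h difference it fell by 0.85 at 24 h (adjusted p = 0.0274). That call was lost without any one of control replicates 1 and 2 at 0 and 24 h and Ikaros replicate 3 at 0 and 24 h, with adjusted p from 0.0569 to 0.0824.

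E2f8, the other atypical repressor, had the largest difference of the family at 24 h. Its Ikaros libraries stood at 12.67, 12.87 and 12.39 and its control libraries at 13.73, 13.90 and 13.51. At 6 h they stood at 13.97, 13.70 and 13.14 against 13.41, 13.39 and 12.80. The lines were apart at 24 h and overlapped at 6 h, although all 3 batches had the Ikaros library higher at 6 h, by 0.31 to 0.56.

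The E2f8 difference was 0.40 ± 0.23 (SE) at 6 h, which was not called (adjusted p = 0.179) except with the replicate block (0.0441) or without Ikaros replicate 3 (0.0455). It was -1.07 at 24 h (adjusted p = 0.000262), and within batches it lay between -1.12 and -1.03 there. Against the 0 h difference it fell by 0.85 at 24 h (adjusted p = 0.0352), and this call was lost without any one of control replicates 1 and 2 at 0 and 24 h, Ikaros replicates 2 and 3 at 0 h and Ikaros replicates 1 and 3 at 24 h (0.0508 to 0.0957). Gm2788, on the other strand, differed by -0.39 ± 0.29 at 24 h (adjusted p = 0.245).

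The change of the Ikaros minus control difference from 0 h was called for 1, 1, 2, 1 and 5 of 7 members over 2, 6, 12, 18 and 24 h, against 3.10, 15.9, 29.7, 43.0 and 48.4% of all genes. E2f2 was among them up to 18 h, E2f1 at 12 and 24 h, and at 24 h all were called but E2f2 and E2f5. From 2 to 24 h, a contrast free of the 0 h cultures, the change was called for 3 of 7 (E2f1, E2f4 and E2f8), against 47.3% of all genes. For E2f8 that call (-0.81, adjusted p = 0.0444) was lost without any one of control replicate 3 at 2 h, control replicates 1 and 2 at 24 h, Ikaros replicates 1 and 2 at 2 h and Ikaros replicates 1 and 3 at 24 h (0.0634 to 0.129). The change from 18 to 24 h was chosen as a contrast after the values were seen. It was called for 2 of 7 (E2f1 and E2f2), against 2.63% of all genes. With the replicate block E2f8 was called as well (-0.99, adjusted p = 0.0134). In a fit of the groups of that contrast alone, or without replicate 1 or 2 of every group, no gene was called, and so no member.

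One test over the 5 changes from 0 h, limma's moderated F test, called 6 of 7 members, all but E2f5, against 59.8% of all genes. Its adjusted p was 1.01e-05 for E2f1, 1.41e-05 for E2f2, 0.00295 for E2f4, 0.00929 for E2f8, 0.0254 for E2f3, 0.0364 for E2f7 and 0.762 for E2f5. Leaving replicate 2 out of every group kept the calls of E2f1 and E2f2 and lost those of E2f3 (0.158), E2f4 (0.0625), E2f7 (0.4) and E2f8 (0.172), without replicate 1 those of E2f3, E2f7 and E2f8 were lost (0.159 to 0.323), and without replicate 3 that of E2f4 (0.0527). For E2f3 it rose to 0.0638 without Ikaros replicate 1 at 24 h. For E2f7 it rose to between 0.0503 and 0.0795 without any one of 11 libraries, namely control replicate 1 at 0, 2 and 24 h, control replicate 2 at 2 and 24 h, control replicate 3 at 6 h, Ikaros replicate 1 at 6 h, Ikaros replicate 2 at 2 and 24 h and Ikaros replicate 3 at 2 and 24 h.

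Within the Ikaros line, set against its own 0 h cells, the calls over 2, 6, 12, 18 and 24 h numbered 2, 2, 3, 3 and 6 of 7, against 19.2, 32.8, 46.1, 54.6 and 60.6% of all genes. E2f2 was called at all 5 times, E2f7 at 2 and 24 h, E2f1 at 6, 12 and 24 h, E2f3 from 12 h, E2f4 from 18 h and E2f8 at 24 h. With the replicate block 4 members were called at 2 h, E2f1 (0.0368) and E2f3 (0.0205) being added, and E2f7 was added at 6 h (0.0418). These additions rest on pairing 0 h and later cultures by batch number, although the 0 h cells were collected separately. Without Ikaros replicate 3 at 6 h the call of E2f1 at 6 h was lost (0.061).

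The control line gave the background of drug exposure. Its contrasts also hold the separate collection of the 0 h cells, which cannot be told apart from the drug. None of the 7 members was called there at any time by limma, against 0.0470, 5.10, 0.0549, 0.478 and 0.470% of all genes over 2, 6, 12, 18 and 24 h. At an unadjusted p under 0.05 the count was 3 members at 6 h and 0 at the other times. The members concerned were E2f3, E2f7 and E2f8. Without the replicate block they stood at -0.54, -0.52 and -0.57 from their 0 h level at 6 h. With the block all 3 were called there (adjusted p = 0.0402, 0.023 and 0.0109), as were 2585 genes of the table against 651 without it. These p-values belong to the blocked fit, whose own estimates are not given here. The block pairs 0 h and later cultures by batch number, although the 0 h cells were collected separately, and the added calls rest on that pairing.

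The batches moved with several members, which were spread by batch in both lines alike. Over the 10 groups from 2 to 24 h the library of batch 4 was the lowest of its group in 10 for E2f8, in 9 for E2f7 and in 7 for E2f3, and the highest in 8 for E2f5 and in 9 for E2f1. Its mean deviation from the group mean was -0.32 for E2f8, -0.24 for E2f7, -0.21 for E2f3, 0.11 for E2f1 and 0.38 for E2f5. Batch 1 was the highest of its group in 9 of 10 groups for E2f2, by 0.10 on average. Both lines were grown in every batch, and the differences within batches are given above.

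**Figure D3:**
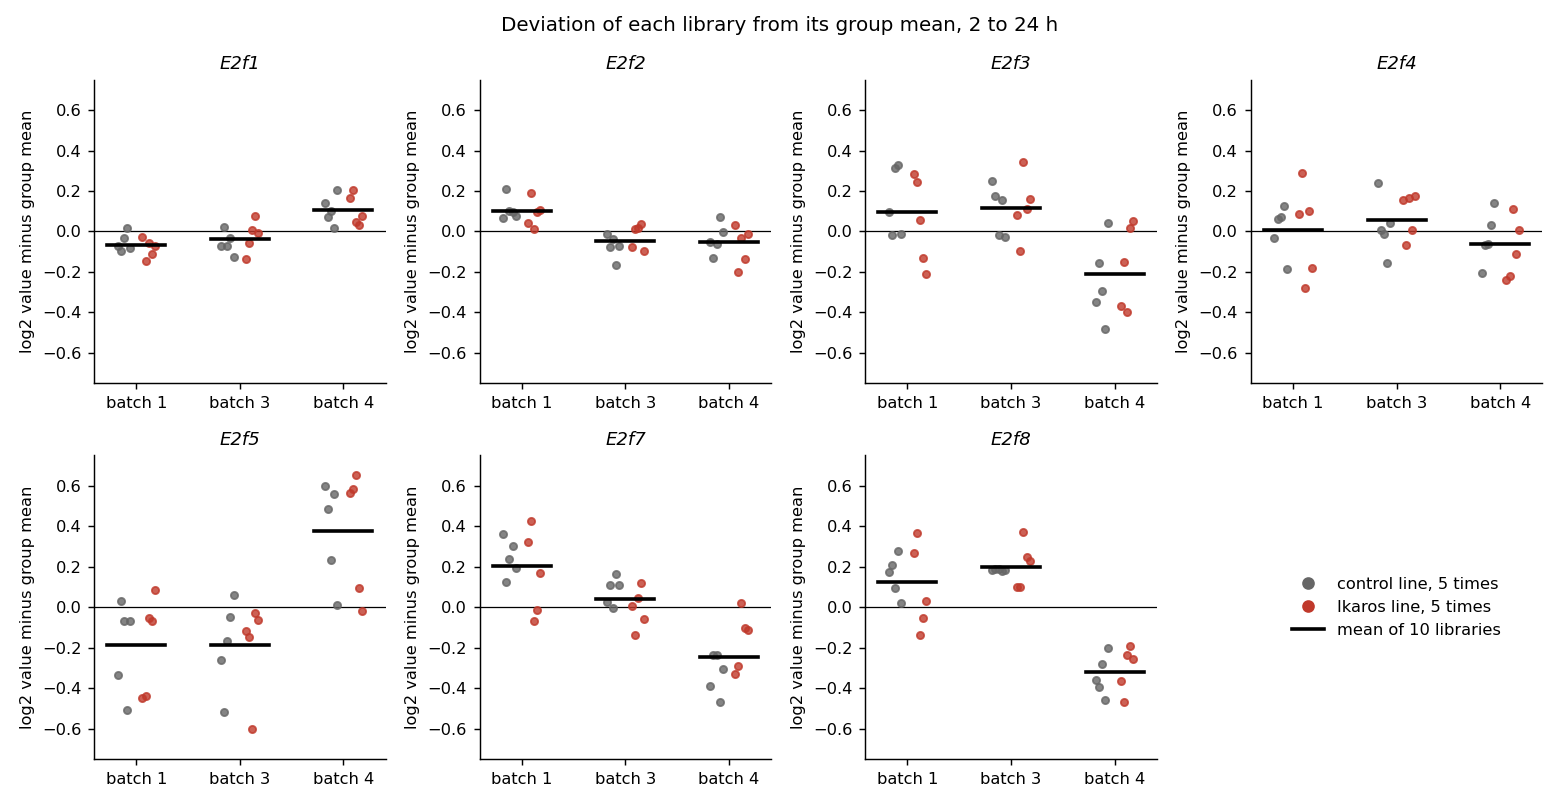
Deviation of each library from the mean of its group of 3 in log2 units (vertical axes) by culture batch for the 7 E2F genes, 2 to 24 h. Points are libraries of the control line (grey) and the Ikaros line (red), 5 times each, and black bars are means of 10 libraries. Batch 4 sits at -0.32 for E2f8 and at 0.38 for E2f5.

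Across the 36 libraries E2f7 and E2f8 had the highest Pearson correlation of the 21 pairs of members (r = 0.83), followed by E2f3 with E2f7 (0.76), E2f3 with E2f4 (0.75) and E2f3 with E2f8 (0.71). E2f2 went against E2f3 (-0.45) and E2f4 (-0.41), and E2f5 went against E2f3 (-0.54). All these points share groups, batches and a common normalization, so the values describe the table and carry no test.

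The genes most like each member over the same 36 libraries were ranked by Pearson correlation among genes with a symbol. E2f7 was nearest to Mcm2 (0.93), a subunit of the replicative helicase, Atad2 (0.91) and Ncapg2 (0.89), and E2f8 to Dnajc9 (0.91), Mcm6 (0.90) and Mcm2 (0.87). E2f1 was nearest to Cdc45 (0.86), which loads with the helicase at origins, then Enkd1 (0.85) and the centriole gene Stil (0.83). E2f3 was nearest to Isoc1 (0.93), Prps1l3 (0.92) and Tfdp1 (0.92), which encodes the DP1 partner of E2F proteins. E2f4 was nearest to the nuclear import factor gene Nutf2 (0.93), Mmachc (0.93) and Shmt2 (0.92), E2f2 to Agfg2 (0.93), Nyap1 (0.91) and 0610009O20Rik (0.90), and E2f5 to Zbtb21 (0.82), Erp29 (0.81) and Fam53a (0.80).

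The pocket proteins, which hold E2F factors in check, were higher or level in Ikaros cells. Rb1, the retinoblastoma gene, was higher by 0.99 at 6 h (limma, adjusted p = 1.93e-07) and the difference had grown to 1.36 ± 0.12 (SE) at 24 h (9.69e-11), and Rbl2, which encodes p130, by 0.51 at 24 h (0.00252). Rbl1, which encodes p107, differed by -0.22 at 24 h (0.379). Thus 2 of 3 were called at 24 h, both higher, near the share of 62.9% of all genes called in either direction. Of the dimer partners Tfdp1 was lower at 24 h (-0.93, adjusted p = 0.000748). Tfdp2 was lower at 2 h (-0.33, limma adjusted p = 0.0378) and higher at both 18 h (0.67, 8.53e-06) and 24 h (0.53, 0.000152).

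Among 7 genes of the MuvB core and its partners, which bind with E2F4 and p130 in resting cells or with B-Myb and FoxM1 in dividing ones, 1 was higher and 2 were lower at 24 h, where 62.9% of all genes were called. Mybl2, which encodes B-Myb, was lower at 2 h already (-0.43, adjusted p = 0.000608) and more so at 24 h (-1.91, 2.84e-16). Lin54, the subunit that reads the cell cycle homology region, was lower at 24 h (-0.66, 2.59e-05), and Lin37 was higher by 0.63 (0.00965). Foxm1 was higher from 2 h (0.31, adjusted p = 0.00631) to 18 h (0.47) and differed by -0.01 at 24 h (0.947).

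The cyclins and kinases that inactivate pocket proteins numbered 8, of which 1, 2, 3, 6, 6 and 8 were called lower and 2, 0, 2, 0, 0 and 0 higher over 0, 2, 6, 12, 18 and 24 h. In either direction 8.33, 19.1, 37.3, 45.8, 58.2 and 62.9% of all genes were called, and 31.9% were lower at 24 h. Ccnd1 and Ccnd2, D-type cyclins that start this step, differed by -4.13 and -3.25 at 24 h (adjusted p = 2.29e-14 and 2.31e-14). At 0 h, before induction, both were higher, by 1.90 and 0.70. Ccnd3, the third D-type cyclin, was already lower at 0 h (-0.87, limma adjusted p = 2.1e-06). Its mean was 15.94 in Ikaros and 16.81 in control cells at 0 h, and 15.89 and 16.90 at 24 h. Ccne1 and Ccne2, E2F targets themselves, were higher at 6 h (0.43 and 0.60) and lower at 24 h (-1.73 and -1.78), and Cdk6 was lower at 24 h (-1.18, 4.94e-07). At 24 h, 4 of the 6 CDK inhibitors with values were higher and 1 was lower, against 31.0% and 31.9% of all genes. Cdkn1b, which encodes p27, was higher at 0 h (0.66, adjusted p = 0.0339) and at 24 h (3.14, 1.89e-13), as was Cdkn2c at 24 h (2.00, 5.68e-12). Cdkn1a, which encodes p21, was higher at 2 h (0.54, limma adjusted p = 0.0295) and 6 h (0.77, 0.000957) and lower at 24 h (-0.61, 0.0034).

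**Figure D4:**
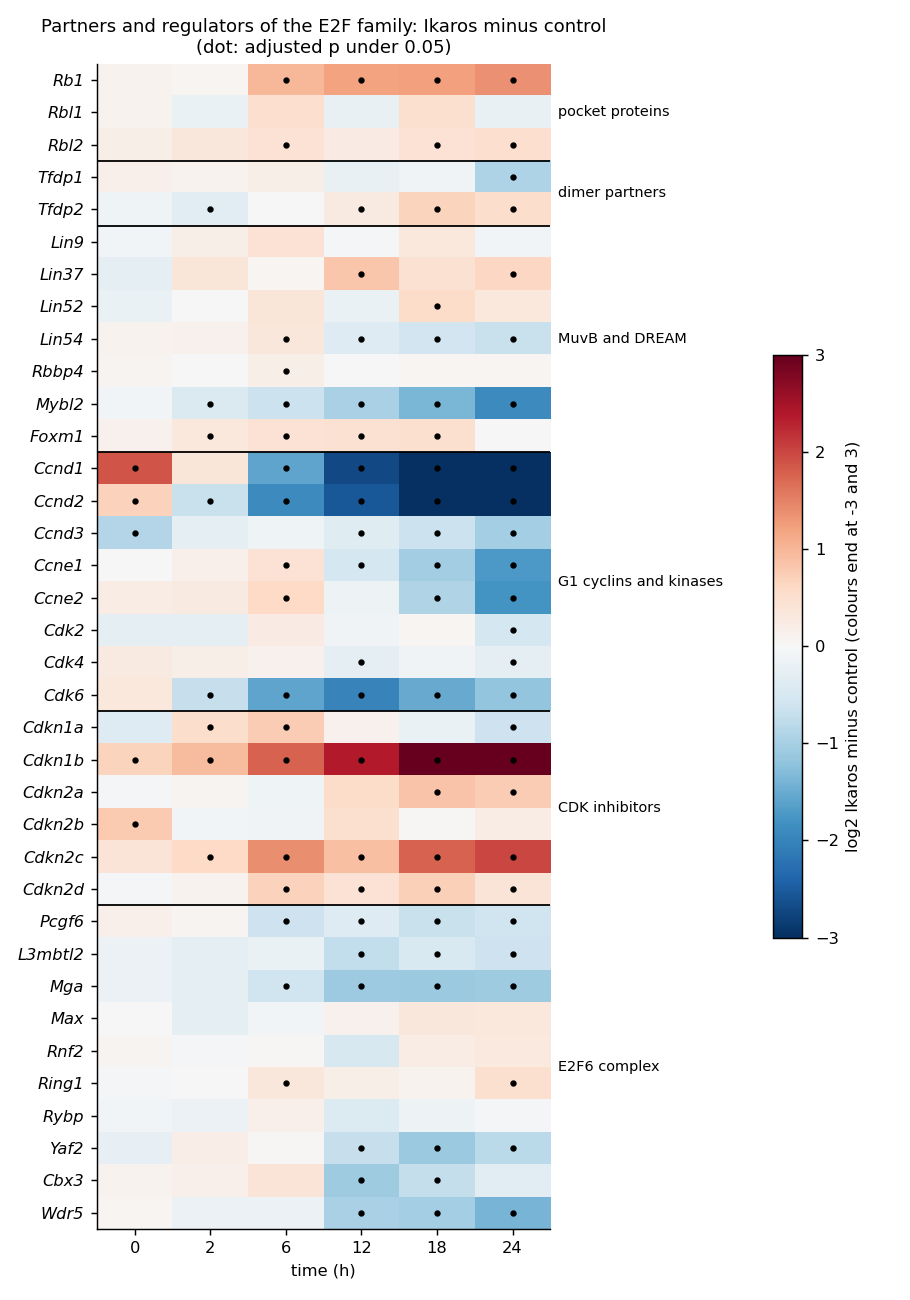
Ikaros minus control difference in log2 expression (colour, ending at -3 and 3) of partners and regulators of the E2F family (rows, grouped by list) against time in hours (columns). A dot marks an adjusted p under 0.05. Ccnd1 and Ccnd2 turn from higher at 0 h to differences of -4.13 and -3.25 at 24 h, while Rb1 and Cdkn1b are higher by 1.36 and 3.14 there.

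All 10 listed partners of E2F6 in its Polycomb complex were in the table, unlike E2f6 itself. At 24 h 6 of the 10 were called, near the 62.9% of all genes, 1 of them higher and 5 lower, with Wdr5 (-1.40, adjusted p = 7.43e-12) and Mga (-1.07, 1.27e-08) among the lower and Ring1 the higher one (0.47, 1.64e-05). None of the 10 listed germ line genes that E2F6 silences in body cells was in the table.

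Most of the listed S phase targets of the family were lower in Ikaros cells at 24 h. Of 39 genes, all in the table, 3 were called at 0 h, and lower calls over 2, 6, 12, 18 and 24 h numbered 2, 8, 10, 22 and 35, against 9.88, 19.2, 22.8, 29.2 and 31.9% of all genes. Higher calls numbered 0, 6, 3, 3 and 1. The median difference of the list was 0.11, -0.32 and -0.90 over 6, 18 and 24 h, and the median of all genes at 24 h was -0.01. At 18 h, with 22 targets lower, E2f4 was the one member of 7 called lower, and at 24 h 5 of 7 were. Earlier, E2f7 was called lower at 2 h (-0.66) and E2f3 at 12 h (-0.63), and both calls were lost without single libraries. At 18 h the results of E2f3 and E2f4 depended on replicate 3, whereas the higher call of E2f2 was kept under every alternative. E2f3 (-0.33) was called lower there without control replicate 3 (limma adjusted p = 0.0276). The call of E2f4 was lost without replicate 3 of every group (0.0556). The order of targets and members in time was not tested.

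The largest differences were those of Tyms, the thymidylate synthase gene (-2.97 ± 0.15 SE, adjusted p = 4.3e-15), Hells, a chromatin remodeller (-2.23, 2.98e-16), and the checkpoint kinase gene Chek1 (-1.90, 2.93e-13). The smallest differences were those of Cdt1 (-0.14, 0.268), Mcm7 (-0.17, 0.182) and Dnmt1 (-0.23, 0.082), which were the 3 not called at 24 h. The one gene called higher at 24 h was Ezh2, the Polycomb methyltransferase gene, by 1.42 (adjusted p = 6.29e-14), named after its value was seen.

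**Figure D5:**
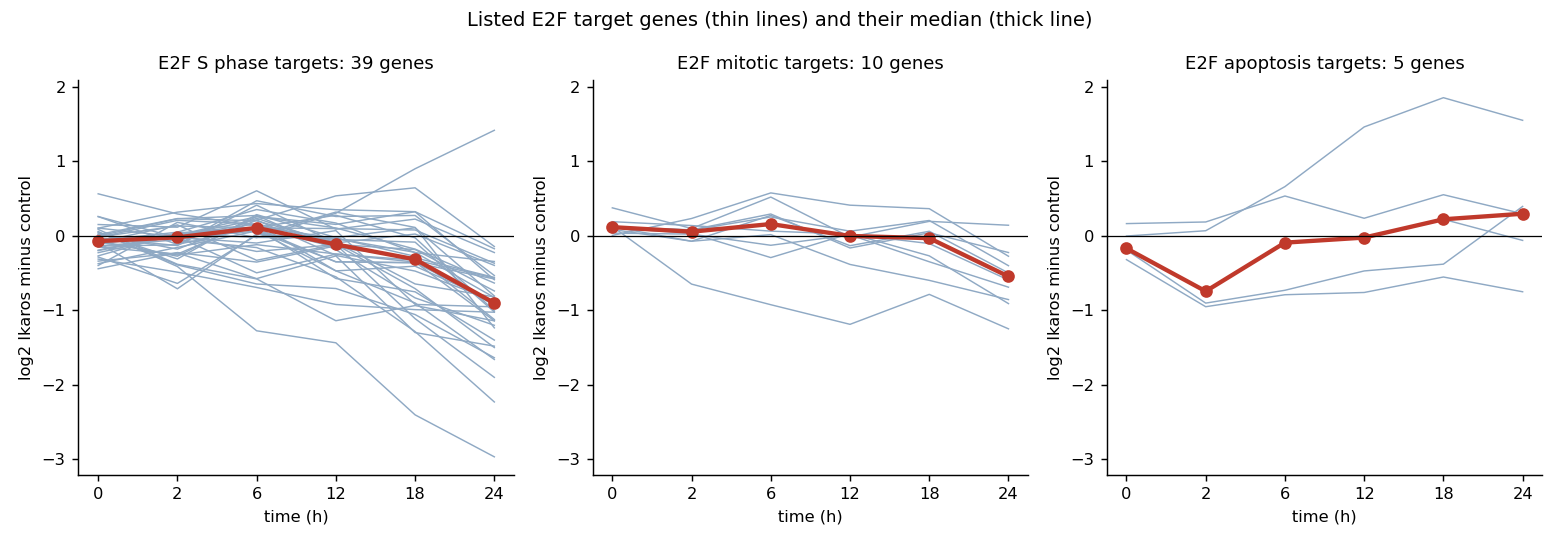
Ikaros minus control difference in log2 expression (vertical axes) of listed E2F target genes against time in hours, with thin lines for genes and a thick line for the median of each list. The median of the 39 S phase targets goes to -0.90 at 24 h, that of the 10 mitotic targets to -0.55 and that of the 5 apoptosis targets to 0.30.

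Of 10 mitotic genes reached by E2F 9 were lower at 24 h and none higher, with a median of -0.55, against 31.9% of all genes lower. At 18 h 4 were lower and 1 higher, against 29.2% and 29.0% of all genes, and the list median was -0.03. Of 7 apoptosis genes reached by E2F1 5 were in the table. At 2 h 3 of them were lower and none higher, with a list median of -0.75, against 9.88% of all genes lower. At 24 h 2 were higher, 1 was lower and 2 were not called, against 31.0% and 31.9% of all genes higher and lower. Bcl2l11, which encodes the death factor Bim, was higher by 1.55 at 24 h, and Bbc3, which encodes Puma, was lower at 2 h (-0.91) and higher at 24 h (0.39). These apoptosis genes were named after their values were seen.

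Markers of other cells were few in the table. The summed myeloid markers of every Ikaros library lay above those of the control libraries at all 6 times, and the summed natural killer cell markers at 0 h only. Itgam was higher (4.24) and Lyz2 lower (-2.94) in Ikaros cells at 24 h. At 0 h, before induction, Lyz2 was higher (2.94, limma adjusted p = 0.000627) and Itgam was not called (-0.78). Both are markers of myeloid cells and lay at percentiles 7.6 (Lyz2) and 5.81 (Itgam) of all genes. The other 3 myeloid markers and all T cell markers were not in the table. The log2 of the summed myeloid markers lay between 7.28 and 8.74 in control and between 9.22 and 9.67 in Ikaros libraries at 24 h, and between 6.43 and 7.15 and between 8.87 and 9.88 at 0 h. The sum of 2 natural killer cell markers lay between 6.92 and 7.36 in control and between 8.92 and 9.69 in Ikaros libraries at 0 h and overlapped at the later times, with 1 of the 2 called at each of 0, 12 and 18 h. The sum of 2 erythroid markers overlapped at all 6 times. The part of these genes in the E2F differences was not tested.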

How the data were processed

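mRNA was measured in 36 libraries of the B3 line, 3 for each of 12 groups of line and time, grouped by their labels. The deposited table holds log2 expression values for 12762 genes, of which 12501 had a symbol. Per the study's methods and the submitters' processing notes, the authors mapped paired reads of strand-specific libraries to mm10 with TopHat2, counted fragments per gene with HTSeq, normalized for gene length and GC content with cqn, and removed library preparation effects with ComBat. The file itself names no log base, and base 2 is taken from the output of cqn. The lowest value of the table is exactly 1, which shows a shift, and library medians lie between 11.7 and 11.73. Since effects were removed before deposit, standard errors may be too small. Depth is unknown, and no interval for counting error was given. At most 0.384% of the values were identical between any 2 libraries.

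Group means were fitted to the deposited log2 values of all libraries by limma 3.58.1 (R 4.3.3, default eBayes), two-sided, with Benjamini-Hochberg adjustment over all genes and calls at an adjusted p under 0.05. The fit was tested on simulated data. Descriptions used numpy 2.4.6 and pandas 2.3.3. Intervals are 95%. Promoter sequences are from RefSeq (GRCm38.p6) and positions from GENCODE M21.

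Members and gene lists were chosen with earlier results of these data known. The genes named are the 8 members, Ikzf1, the partners, pocket proteins, cyclins, kinases and inhibitors by value, the 3 S phase targets with the largest and the 3 with the smallest absolute difference at 24 h, and the 3 genes with the highest Pearson correlation with each member. Other genes are named as chosen after their values were seen.

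Labels give one batch number to cultures of both lines, so numbers pair the libraries. Over 18 pairs of same-numbered libraries the correlation of their deviations from group means ran from -0.062 to 0.507, with a median of 0.127 and 12 pairs over 0.1. Alternatives were a replicate block (the culture batch as a fixed effect, or the batch crossed with 0 h against later), a filter that left 9571 genes by dropping those under the 25th percentile of mean level, quantile normalization, trend and robust options of eBayes, a separate fit of the groups in each contrast, and leaving out each replicate number or each library. The labels do not say that the replicates share more than a batch, and p-values measure the spread between these libraries. One gene of the apoptosis list is not reported here by name.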

Additional observations from a re-analysis of the deposited data

Results flagged for a closer look

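For 5 members the Ikaros minus control difference at 24 h departed from that at 0 h by limma's test of the interaction, adjusted over 12762 genes. E2f3 fell by 0.95 ± 0.30 (SE) on the log2 scale (adjusted p = 0.0104), E2f4 fell by 0.86 ± 0.20 (0.000801), E2f7 fell by 0.85 ± 0.31 (0.0274), E2f8 fell by 0.85 ± 0.33 (0.0352) and E2f1 fell by 0.62 ± 0.15 (0.0014). At 24 h the Ikaros library was below the control library of its batch in 3 of 3 batches for each of these genes. The calls of E2f7 and E2f8 were each lost without any one of several libraries, with adjusted p up to 0.0824 and 0.0957, and that of E2f3 was lost without replicate 1 (0.0888) or replicate 2 (0.101) of every group. The 0 h cells were collected apart from the others. Without them, from 2 to 24 h, the change was -0.79 for E2f1, -0.85 for E2f4 and -0.81 for E2f8, all called, and -0.72 for E2f3 (adjusted p = 0.0508) and -0.16 for E2f7 (0.704), where the E2f7 difference at 2 h was already -0.66.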

How the results depend on the processing

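No called value of a member changed sign under any alternative. Of 7483 member values compared, 129 that were called in neither fit changed sign. With the replicate block 13 of 168 member calls were gained and none lost, and the values are given beside the results. The block changed no other call of a member. It moved the members called from 0 to 1 for Ikaros against control at 0 h, from 1 to 2 for the change from 0 to 6 h, from 2 to 4 within the Ikaros line at 2 h and from 0 to 3 within the control line at 6 h. With separate blocks for the 0 h cultures, which could not be fitted for contrasts with 0 h inside a line, 12 of 98 calls were gained, among them E2f5 at 24 h (adjusted p = 0.0475). That setting called 1 member and 13 listed pathway genes (8 without it) between the lines at 0 h, and 2, 3 and 4 members for the changes from 0 to 2 h, from 0 to 6 h and from 18 to 24 h (1, 1 and 2 without it).

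A fit of only the groups compared has fewer samples and lost 9 calls and gained 4 of 161. It called 1 member between the lines at each of 0, 2 and 6 h, 2 and 17 pathway genes at 2 and 6 h (15 and 41 in the fit of all groups), no member for the changes from 0 to 2 h and from 18 to 24 h (0 against 1 and 2), and 1 within the Ikaros line at each of 2 and 6 h. E2f5 at 24 h was called in it (adjusted p = 0.00346). The filter on low values, quantile normalization and the eBayes options each changed 1 or 2 member calls, all gains of E2f3.

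Leaving out a replicate number or a single library moved the members called between the lines to 1 to 2 at 2 h, 1 to 3 at 6 h, 1 to 4 at 12 h and 4 to 7 at 24 h. The counts for pathway genes were 2 to 9, 3 to 19 and 21 to 43 at 0, 2 and 6 h. For the change from 0 h the member counts were 0 to 1, 0 to 3, 1 to 3, 1 to 2 and 2 to 5 in order of time, from 18 to 24 h 0 to 2, within the Ikaros line 1 to 3 at both 2 and 6 h, and in the F test 2 to 6. Each of these low ends was reached when replicate 1 or replicate 2 was left out of every group, which leaves 2 libraries a group. Leaving out replicate 1, 2 or 3 throughout lost 16, 24 and 5 of 168 member calls and gained 1, 0 and 10. Without replicate 2 the calls of E2f2 (adjusted p = 0.0632) and E2f7 (0.088) at 24 h were lost, and without replicate 1 or 2 those of E2f3, E2f7 and E2f8 for the change from 0 to 24 h (0.0888 to 0.255).

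Among all genes the replicate block moved the calls from 336 to 560 for the change from 18 to 24 h, from 2444 to 3720 within the Ikaros line at 2 h, and from 651 to 2585 and 61 to 129 within the control line at 6 and 18 h. Separate blocks gave 661 for the change from 0 to 2 h (396 without) and 719 from 18 to 24 h. The filter took the calls at 0 h from 1063 to 701, and quantile normalization those within the control line at 12 h from 7 to 4. In fits of only the groups compared there were 860 and 2150 calls between the lines at 2 and 6 h (2432 and 4759 in the fit of all groups), 257 for the change from 0 to 2 h and 0 for that from 18 to 24 h (2273 genes at an unadjusted p under 0.05), 758 and 2471 (4182) within the Ikaros line at 2 and 6 h, and within the control line 12 at 6 h and 0 at the other times (1002 to 1861 unadjusted), where the fit of all groups had called 6 to 61. The F test called 7626 genes, and 4821 without replicate 1 and 4064 without replicate 2. In the same order the calls between the lines were 432 and 318 at 0 h (1063 with all replicates), 962 and 804 at 2 h and 2640 and 2706 at 6 h, and those for the change from 0 h were 54 and 55 at 2 h, 766 and 584 at 6 h (2024) and 2228 and 1548 at 12 h (3795). Within the Ikaros line there were 982 and 645 calls at 2 h. Without replicate 2 the lines at 12 h gave 3769 (5850), the changes from 0 to 18 h, from 0 to 24 h and from 2 to 24 h gave 3077, 4056 and 3775 (5492, 6180 and 6037), and the Ikaros line gave 1904 at 6 h and 3598 at 12 h (5888). Without replicate 3 it gave 1599 at 2 h. Within the control line the 651 calls at 6 h became 0, 0 and 115 by limma without replicate 1, 2 and 3 (2076 and 2546 unadjusted for the first and second), and the counts at the other times, at most 61, became at most 22. The shares of all genes given as background move with these counts. The change from 18 to 24 h called 0 genes by limma without either of them (1545 and 902 unadjusted) and 120 without replicate 3. Read depth is unknown, so no value says how few reads lie behind E2f5, the lowest member.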
